A study of Rattus norvegicus with 6 samples.

Results

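The conventional mitogen-activated protein (MAP) kinases of the ERK, JNK and p38 classes were followed in the rat amygdala after acute ethanol. They were chosen by gene symbol: Mapk3 and Mapk7 (ERK1 and ERK5), Mapk8, Mapk9 and Mapk10 (JNK1, JNK2 and JNK3), and Mapk11, Mapk12, Mapk13 and Mapk14 (p38 beta, gamma, delta and alpha). These 9 genes are 9 of the 38445 genes counted in each library, and each symbol matched 1 gene. RNA-seq was done on amygdala of adult male Sprague Dawley rats, wild type, given an intraperitoneal injection of saline (control) or ethanol at 1 g/kg, with tissue collected 1 h later. Each library held RNA pooled from 2 rats, so the 6 rats of a group gave 3 libraries, and the values describe bulk tissue of mixed cell types. In such tissue, fewer cells of a type and less RNA per cell cannot be told apart.

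MAP kinases form the last tier of a relay in which a MAP kinase kinase kinase (MAP3K) activates a MAP kinase kinase (MAP2K), which in turn phosphorylates the MAP kinase on a threonine and a tyrosine. ERK is best known for responding to growth factors, neurotransmitters and calcium, and in amygdala neurons it is known for its part in fear learning. JNK and p38 are known as stress- and cytokine-responsive kinases. JNK3 is largely a neuronal isoform, whereas p38 alpha is made in most cell types. Their activity is set by phosphorylation, which RNA-seq does not measure, so the values below are mRNA levels alone.

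All positions are those of the counting annotation, build Rnor_6.0, and each count sums reads over the exons of the gene, UTRs included. Mapk3 lies on chromosome 1 from 198192773 to 198198975, Mapk8 on chromosome 16 from 9620854 to 9709342, and Mapk9 on chromosome 10 from 35333859 to 35374364. Mapk10 spans chromosome 14 from 8079955 to 8371508. Of the p38 genes, Mapk12 (130109214 to 130120918) and Mapk11 (130121678 to 130129199) are neighbours on chromosome 7, 759 bases apart and on the same strand. The other p38 genes are also neighbours on 1 strand, Mapk14 on chromosome 20 from 5933290 to 5995137 and Mapk13 from 6018374 to 6027467, with 23236 bases between them. None of the 9 shares an exonic base with another gene on its own strand. Mapk11 shares 33 exonic bases with LOC108351526 on the opposite strand, and the reads were counted by strand.

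Promoter sequence was read from a RefSeq table in build GRCr8, a later build than that of the counts, which held 7 of the 9 genes; Mapk3 and Mapk9 had no entry. The promoter of Mapk10 is shown because its window alone among the 7 held the palindromic cAMP response element TGACGTCA, which CREB family factors bind. That element occurred in 1.83% of the 33469 promoter windows of 300 bases in the table. The promoters of Mapk14 and Mapk13 are shown because these neighbours, of the same kinase class, differ most in mRNA level among the p38 genes. Each sequence runs 5′ to 3′ over the 250 bases before the annotated start, on the plus strand, at chr14:6802044-6802293 for Mapk10, chr20:6751109-6751358 for Mapk14 and chr20:6836769-6837018 for Mapk13. Capitals mark TGACGTCA in Mapk10, and GGGCGG, the GC box bound by Sp factors, on either strand in the other two.
Mapk10: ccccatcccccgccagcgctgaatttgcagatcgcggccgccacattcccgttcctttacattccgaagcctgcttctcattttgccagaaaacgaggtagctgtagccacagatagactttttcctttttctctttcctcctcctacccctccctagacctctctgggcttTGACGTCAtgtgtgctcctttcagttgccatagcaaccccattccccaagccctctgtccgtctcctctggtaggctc
Mapk14: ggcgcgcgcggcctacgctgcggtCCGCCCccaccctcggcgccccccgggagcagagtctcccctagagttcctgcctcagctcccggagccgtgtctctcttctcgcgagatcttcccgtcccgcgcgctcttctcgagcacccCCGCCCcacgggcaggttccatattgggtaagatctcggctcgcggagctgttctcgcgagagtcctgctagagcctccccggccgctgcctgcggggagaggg
Mapk13: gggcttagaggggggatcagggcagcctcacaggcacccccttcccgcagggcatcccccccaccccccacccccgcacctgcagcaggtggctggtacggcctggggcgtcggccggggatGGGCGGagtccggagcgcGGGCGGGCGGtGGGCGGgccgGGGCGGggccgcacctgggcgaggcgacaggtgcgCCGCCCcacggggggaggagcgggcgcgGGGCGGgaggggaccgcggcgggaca
The element in Mapk10 began 78 bases before the start. The Mapk13 window held 7 GC boxes, some overlapping, and the Mapk14 window held 2. GC boxes were present in 33.1% of all windows. The 3 windows differed in base composition, with a GC content of 55.0% in Mapk10, 71.7% in Mapk14 and 81.3% in Mapk13, against a median of 51.7% over the table. The other members' windows had a GC content of 69.7% in Mapk7, 76.3% in Mapk8, 73.3% in Mapk11 and 66.3% in Mapk12. None of the 7 windows held a TATAAA box (14.2% of all windows) or an AP-1 site TGACTCA (4.63%). These matches are descriptions of letters, and no binding was measured.

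Assigned reads per library lay between 62576504 and 70755739, and 3 counts, the limit that a count of 0 allows, corresponded to 0.0424 to 0.0479 CPM, the counts per 1000000 assigned reads. CPM were scaled between libraries by the TMM method, with factors of 0.976 to 1.01. Listed markers of the labelled tissue were present in each library. The central amygdala list (Sst, Prkcd and others) summed to 169 to 199 CPM, of which Sst alone gave 132 to 167 CPM. Tac2 of that list matched no gene in the counts. The basolateral list (Lmo3, Cdh13 and others) summed to 448 to 662 CPM. Whether these markers are particular to the amygdala was not tested. The libraries differed in the marker levels of other cell types. The summed choroid plexus list was 540.4, 1171 and 919 CPM in control 1, 2 and 3 and 14.0, 15.3 and 503 CPM in ethanol 1, 2 and 3. The summed oligodendrocyte list was lowest in control 2 (1630.2 CPM) and highest in ethanol 3 (5547 CPM).

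Levels per length were compared as RPKM, the scaled CPM divided by the counted exon length in kilobases. The most abundant was Mapk3 at 109 ± 8.61 RPKM (SD over 6 libraries), followed by Mapk9 at 55.1 ± 3.00, Mapk10 at 42.1 ± 5.12, Mapk8 at 25.5 ± 1.66 and Mapk14 at 25.3 ± 0.74. Lower levels were found for Mapk11 at 15.3 ± 1.02, Mapk12 at 2.21 ± 0.512 and Mapk13 at 0.203 ± 0.122 RPKM. Each gene lay above the next in all 6 libraries, with no overlap of their ranges, except Mapk8 and Mapk14, whose ranges overlapped and whose order held in 4 of 6 libraries. Mapk3 thus had 1.98 times the mean level of Mapk9. Steps were widest at the low end, 6.92-fold from Mapk11 to Mapk12 and 10.9-fold from Mapk12 to Mapk13. By CPM without the length, Mapk10 came first and Mapk3 came after Mapk9. Exon lengths are those of all annotated transcripts joined, so a gene with long, little-used exons has a lower RPKM than its transcripts would.

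**Figure D1:**
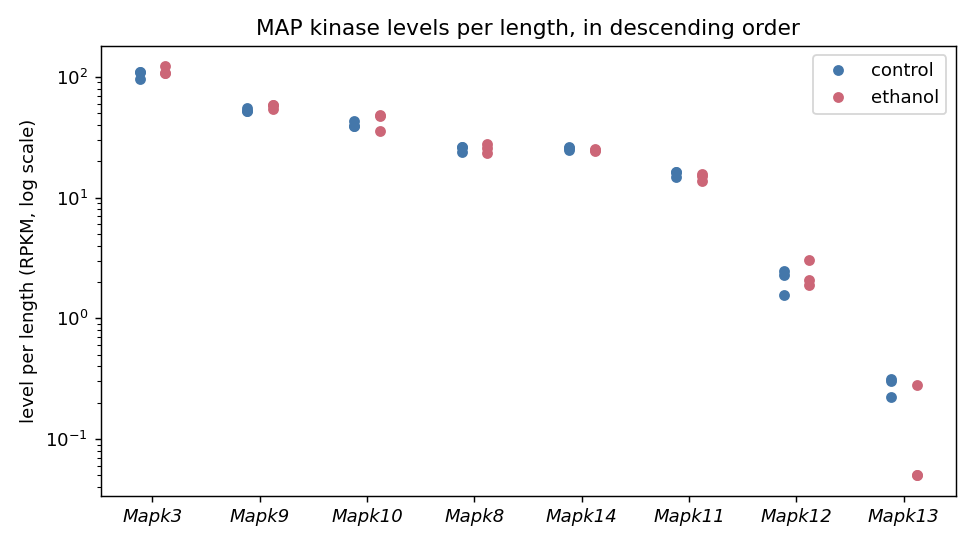
Levels of the 8 counted MAP kinases per length (RPKM, log axis), 1 point per library, control in blue and ethanol in red, genes ordered by their mean. Only Mapk8 and Mapk14 overlap as neighbours in the order, and Mapk13 is the lowest, with ethanol 1 and 2 (superposed) near 0.0501 RPKM.

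Within the JNK class, Mapk9 gave 44.7% ± 1.51 (SD, n = 3) of the summed RPKM in control and 45.2% ± 2.25 in ethanol libraries. The neuronal isoform gene Mapk10 gave 33.9% ± 1.45 and 34.5% ± 2.57, and Mapk8 21.3% ± 0.49 and 20.3% ± 0.711. Summed, the 3 JNK genes came to 119 ± 3.68 RPKM in control and 126 ± 12 RPKM in ethanol libraries. The p38 class was made up mainly of Mapk14, with 58.5% ± 1.85 in control and 59.1% ± 2.06 in ethanol libraries, and Mapk11, with 36.1% ± 1.91 and 35.0% ± 1.23. Mapk12 held 3.57% to 7.12% of the p38 sum, and Mapk13 0.117% to 0.713%, across the 6 libraries. The p38 sum was 43.9 ± 0.0455 RPKM in control and 42.0 ± 1.55 RPKM in ethanol libraries. The make-up of both classes is a description, and these sums and shares were not tested.

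Mapk7, the gene of ERK5, which responds to growth factors and is known for its activation of MEF2 factors, was listed at 0 in every library. Its row spans chromosome 10 from 47768592 to 47775130 on the minus strand, with 9 exon blocks and 4144 counted bases. The annotation holds another gene (gene ID 100912585, without a symbol in the table used), 1235451 bases away on the same chromosome and strand, from 49004043 to 49010581. That gene has the same 9 exon block lengths in the same order, the same span of 6539 bases and also 0 counts in every library. No other member had such a pair. Reads that align to several places were not counted in these files, so the 0 of Mapk7 gives no level of its mRNA; whether its reads were lost in this way was not tested. Mapk7 could not be tested, and 10717 genes (27.9%) were likewise at 0 in all libraries.

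The question of the comparison was whether 1 h of ethanol changed the mRNA level of any of these kinases. None of the 8 members tested passed the study's threshold in the fit made here. That threshold, a Benjamini-Hochberg adjusted p below 0.2, was applied over 18141 genes in the quasi-likelihood test of edgeR. The members' fitted log2 fold changes lay between -1.12 and 0.16, 5 above and 3 below 0, with a median of 0.06 beside 0.006 for all genes tested. The background of calls in this test was 0.0%, that is 0 of 18141 genes, where no adjusted p was under 0.818. An unadjusted p below 0.05 was reached by 753 genes, 4.15% of those tested, and by 0 of the 8 members. DESeq2 called 74 genes and edgeR's likelihood ratio test 77, again with 0 members. Control and ethanol libraries overlapped for each of the 8, while 8.85% of all genes tested had groups that did not overlap. The 95% interval of the fold change included 0 for all 8 members and lay within 1.5-fold either way for 6 of them, all but Mapk12 and Mapk13. These p-values set the difference between groups against the variation between pools of rats, and variation between single rats was not measured.

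Among the ERK genes, Mapk3 (ERK1) had levels of 169.7, 194 and 195 CPM in control 1, 2 and 3 and of 191, 218 and 193 CPM in ethanol 1, 2 and 3. Ethanol 2 was the highest and control 1 the lowest, and the other four libraries lay within a narrow band. Its fold change on the log2 scale was 0.11 (SE 0.08, 95% interval -0.09 to 0.30, unadjusted p = 0.237 by edgeR, exact permutation p = 0.6). It was 0.04 without control 1 and also 0.04 without ethanol 2.

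Of the JNK genes, Mapk8 (JNK1) measured 149.6, 149 and 136 CPM in the controls and 148, 158 and 132 CPM after ethanol. The ethanol libraries enclosed the controls, holding both the highest and the lowest value. Its log2 fold change was 0.01 (SE 0.08, interval -0.17 to 0.20, edgeR p = 0.893, exact permutation p = 1.0), and its sign turned under 3 of the 13 alternative settings, within 0.05 of 0. Mapk9 (JNK2) measured 227, 213 and 213 CPM in the controls and 241, 239 and 221 CPM after ethanol. Ethanol 1 and 2 were above all controls and ethanol 3 lay between them, giving a log2 fold change of 0.10 (SE 0.07, interval -0.05 to 0.25, edgeR p = 0.165, exact permutation p = 0.2).

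Mapk10 (JNK3) showed the widest spread of the JNK genes, with 257, 280.2 and 253 CPM in the controls and 316, 311 and 232 CPM after ethanol. Its ethanol libraries stood at both ends: 1 and 2 were above every control and 3 was below every control. The log2 fold change was 0.12 (SE 0.12, interval -0.16 to 0.40, edgeR p = 0.357, exact permutation p = 0.4). It was 0.04 without ethanol 1, 0.06 without ethanol 2 and 0.25 without ethanol 3, the last with an unadjusted edgeR p of 0.00669 and an adjusted p of 0.369. Summed neuronal markers (Snap25, Syt1, Rbfox3, Nefl and Stmn2, all 5 detected) were 3761, 4062 and 3555 CPM in the controls and 4225, 4647 and 3449 CPM after ethanol. As a sum they too were highest in ethanol 1 and 2 and lowest in ethanol 3. The summed basolateral amygdala markers shared these extremes, at 540.0, 587 and 547 CPM in the controls and 649, 662 and 448 CPM after ethanol. Taken singly, Snap25 and Syt1 were lowest in ethanol 3, but Rbfox3, Nefl and Stmn2 were lowest in control 3. Of the basolateral markers, Rspo2, Etv1 and Cdh13 were lowest in ethanol 3, but Lmo3 and Cplx3 were lowest in control 2. Only Etv1 was also highest in ethanol 1 and 2 (193 and 213 CPM). Other neuronal lists differed. The summed glutamatergic markers were lowest in control 1, and the summed GABA neuron markers were highest in control 1 and lowest in control 3. The neuronal and basolateral lists were picked for display after the values were seen, and their part in the Mapk10 values was not tested.

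The main p38 gene Mapk14 (p38 alpha) had the smallest spread of all members, 2.93% of its mean over the 6 libraries. It measured 87.3, 90.8 and 93.1 CPM in the controls and 88.9, 86.8 and 86.4 CPM after ethanol, where 2 ethanol libraries were just below the lowest control. The log2 fold change was -0.05 (SE 0.05, interval -0.17 to 0.07, edgeR p = 0.374, exact permutation p = 0.2). Mapk11 (p38 beta), the other p38 form common in brain, measured 41.0, 40.4 and 37.1 CPM in the controls and 38.9, 34.0 and 37.4 CPM after ethanol. Ethanol 2 was the lowest and the other ethanol libraries lay among the controls, with a log2 fold change of -0.10 (SE 0.07, interval -0.28 to 0.07, edgeR p = 0.20, exact permutation p = 0.3).

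Mapk12 (p38 gamma), best known from skeletal muscle, had 5.25, 3.37 and 4.92 CPM in the controls and 4.44, 4.06 and 6.56 CPM after ethanol, from 239 to 457 counts a library. Control 2 was the lowest library and ethanol 3 the highest. Its log2 fold change was 0.16 (SE 0.23, interval -0.38 to 0.69, edgeR p = 0.515, exact permutation p = 0.6), and it was -0.02 without control 2 and -0.08 without ethanol 3. The summed oligodendrocyte markers (Mbp, Mog, Mag and Mobp, all 4 detected) were also lowest in control 2 and highest in ethanol 3, at 4177, 1630.2 and 3043 CPM in the controls and 2093, 2791 and 5547 CPM after ethanol. The summed astrocyte markers had the same lowest and highest library, at 2843, 2829.6 and 3385 CPM in the controls and 2831, 2970.2 and 4072 CPM after ethanol. Singly, Aqp4 and Gja1 had these extremes, whereas Gfap and Aldh1l1 were lowest in ethanol 1 and Slc1a2 was highest in control 2 (292 CPM). Control 2 was also lowest for the summed microglia (238 CPM) and endothelium (199 CPM) markers. These comparisons were picked after the values were seen, and the part of any of these cell types in the Mapk12 values was not tested.

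**Figure D2:**
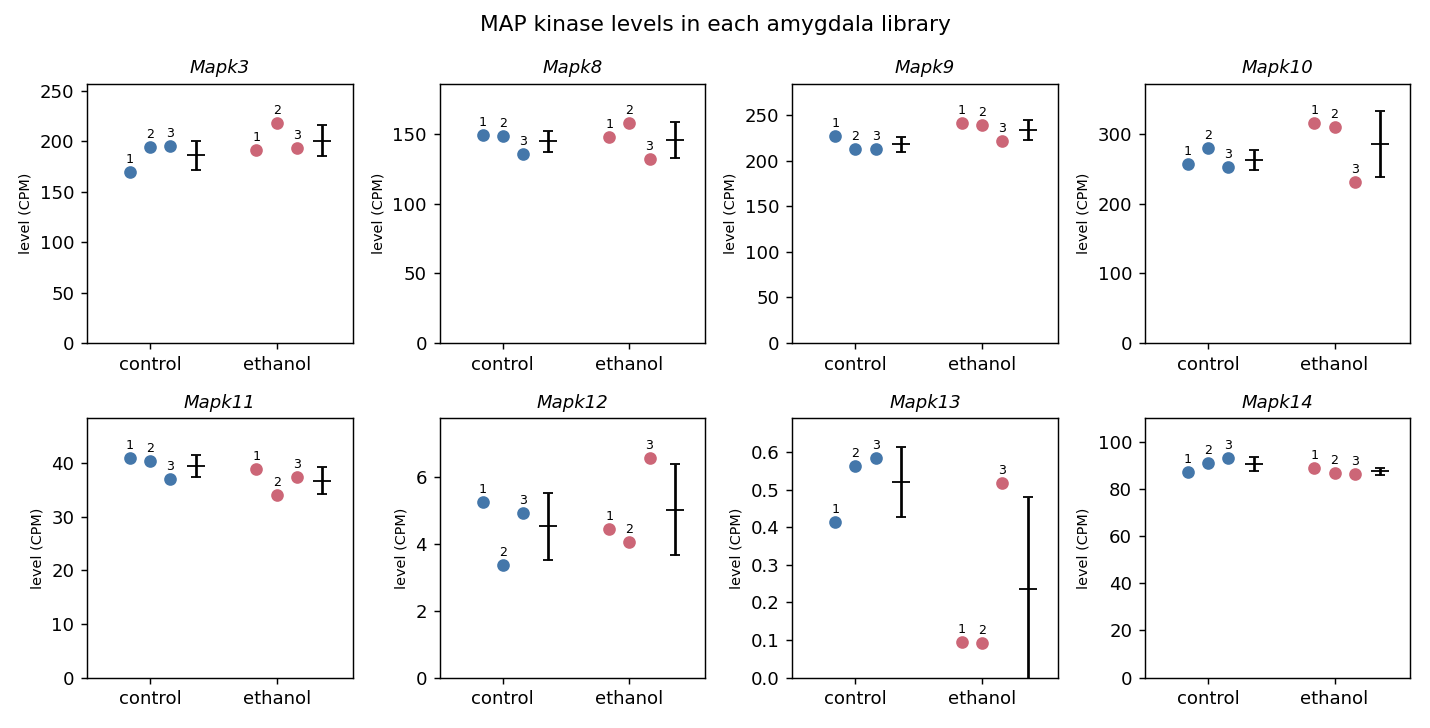
Levels of the 8 counted MAP kinases in each library (CPM, axes from 0), with library numbers above the points, control in blue and ethanol in red; the dash and bar give mean ± SD of 3 libraries, and the lower bar of Mapk13 is cut at 0. The groups overlap in each panel, and for Mapk10 and Mapk13 ethanol 3 stands apart from ethanol 1 and 2.

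**Figure D3:**
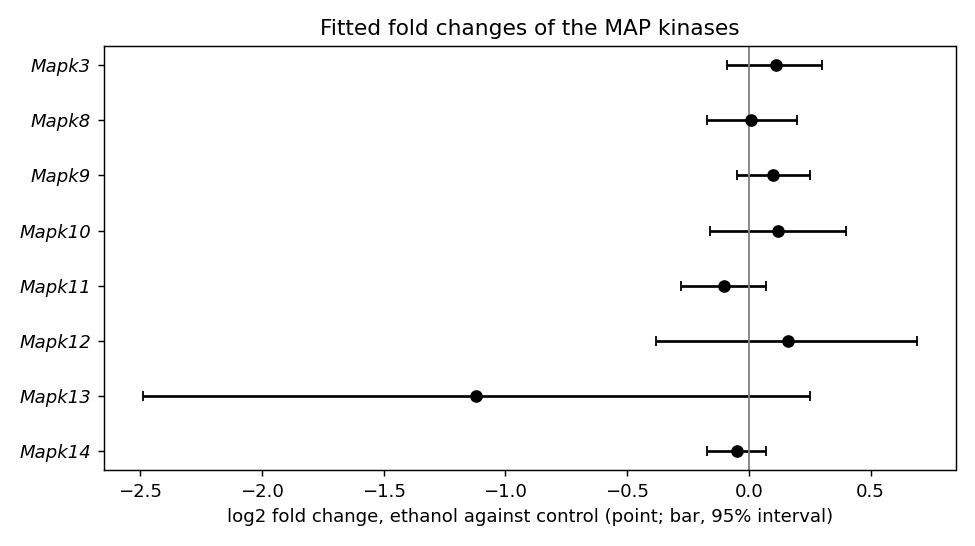
Fitted log2 fold changes of ethanol against control (points) with 95% intervals (bars) from edgeR's quasi-likelihood fit of 3 against 3 libraries. All 8 intervals include 0, and the interval of Mapk13, from -2.49 to 0.25, is the widest.

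Mapk13 (p38 delta), a form known mainly from epithelia, was the rarest member and had the largest fold change. It had 27, 40 and 37 counts in control 1, 2 and 3 and 6, 6 and 36 counts in ethanol 1, 2 and 3. As levels these were 0.413, 0.563 and 0.584 CPM in the controls and 0.0935, 0.0933 and 0.517 CPM after ethanol. Ethanol 1 and 2 were far below the controls, whereas ethanol 3 lay among them. The log2 fold change was -1.12 (SE 0.59, interval -2.49 to 0.25, edgeR p = 0.0966), and the exact permutation test over the 6 libraries gave p = 0.2, where 0.1 is the smallest that 3 against 3 allows. Without ethanol 3 the log2 fold change was -2.45 and Mapk13 passed the threshold, with an adjusted p of 0.106 by edgeR. In that reduced comparison 0.311% of 18356 genes were called lower, and over all alternatives the adjusted p of Mapk13 ran from 0.106 to 1.0. The study, in its own RNA-seq analysis, found genes changed at an FDR below 0.2. It lists Mapk13 among the genes with lower transcript levels after ethanol, and reports that qPCR gave a similar change.

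The choroid plexus, the epithelium that secretes cerebrospinal fluid into the ventricles, left markers that followed the same libraries as Mapk13. Ttr, which encodes the thyroid hormone carrier transthyretin, was at 462, 996 and 817 CPM in the controls and at 5.42, 4.34 and 425 CPM after ethanol. Kcnj13, a potassium channel of that epithelium, measured 9.54, 18.2 and 16.7 CPM in the controls and 1.75, 3.72 and 7.67 CPM after ethanol. Like Mapk13, both were lowest in ethanol 1 and 2. Of the 12 genes of this list, Otx2, a transcription factor of that epithelium, had 1 count over all libraries, and the 11 others could be tested, with a median log2 fold change of -1.85. In that list 5 genes had an unadjusted p below 0.05, each lower after ethanol, beside 2.58% of all genes, and 0 passed the adjusted threshold. In summed level the controls ran from 540.4 to 1171 CPM and the ethanol libraries from 14.0 to 503 CPM. Ependymal and motile cilia genes (10 listed, 8 tested, 6 of these lower at an unadjusted p below 0.05, Rsph4a at 0) summed to 94.5 to 132 CPM in control and 76.3 to 86.9 CPM in ethanol libraries. For Rsph4a, as for Mapk7, the annotation holds a second gene model (gene ID 103689994) with 0 counts, so its 0 gives no level of its mRNA. Epithelial and keratin markers from outside the brain summed to 9.36 to 13.7 CPM in control and 7.32 to 11.8 CPM in ethanol libraries. Of the 3 tested in that list, 1 was lower at an unadjusted p below 0.05, namely Krt18, a keratin of simple epithelia. It measured 3.52, 3.90 and 4.35 CPM in the controls and 2.13, 1.90 and 2.56 CPM after ethanol, without overlap (log2 fold change -0.84, SE 0.15, edgeR p = 0.000711, adjusted p = 0.818, exact permutation p = 0.1). Epcam and Cdh1, the most abundant of that list, overlapped between groups, with log2 fold changes of -0.23 (SE 0.17) and 0.04 (SE 0.72). Cdh1 was highest in ethanol 2, at 7.27 CPM. Krt5 and Krt14 had 6 and 14 counts over all libraries. The part of any of these cells in the Mapk13 values was not tested.

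**Figure D4:**
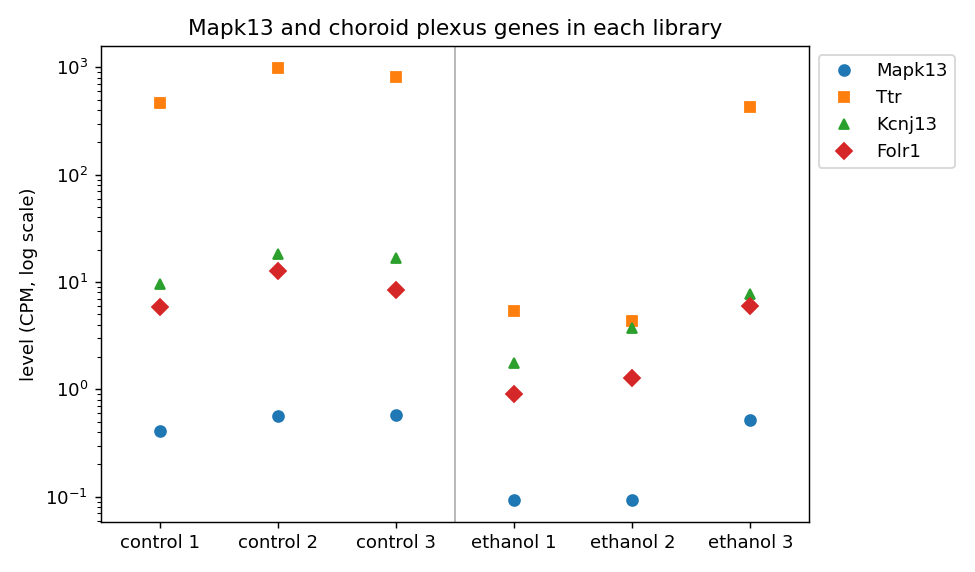
Levels of Mapk13 and of the choroid plexus genes Ttr, Kcnj13 and Folr1 in each library (CPM, log axis), 1 point per gene and library, controls left of the line. All 4 genes are lowest in ethanol 1 and 2, and ethanol 3 is nearer to the controls, with Mapk13 at 0.517 and Ttr at 425 CPM.

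The genes whose pattern was most like that of Mapk13 were found among 18140 other tested genes, by the root mean square difference of centred log2 CPM over the 6 libraries. They were Lmx1a (0.216), Fyb2 (0.281), Clec18a (0.296), Trpv4 (0.297) and Kcne2 (0.297). Kcne2, a potassium channel subunit, measured 5.97, 10.4 and 7.60 CPM in the controls and 2.07, 1.97 and 5.31 CPM after ethanol. Lmx1a, a homeodomain transcription factor, measured 1.22, 2.49 and 1.70 CPM in the controls and 0.358, 0.342 and 2.00 CPM after ethanol. Since these 5 genes were chosen for this likeness, their low values in ethanol 1 and 2 follow from the choice.

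**Figure D5:**
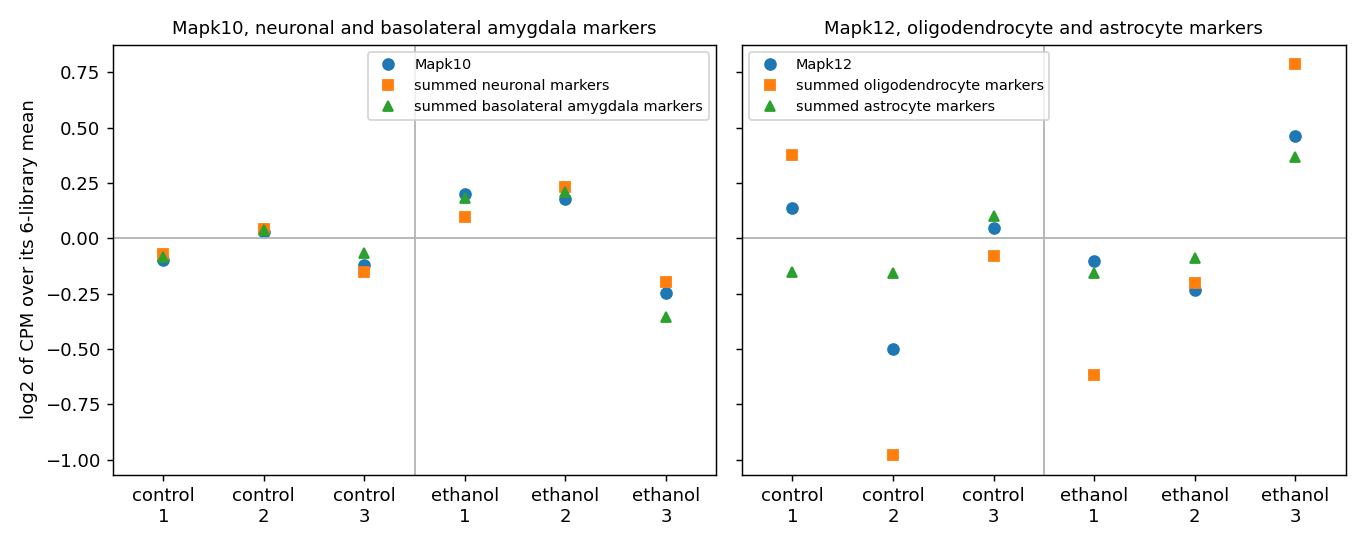
Level of Mapk10 beside the summed neuronal and basolateral amygdala markers (left) and of Mapk12 beside the summed oligodendrocyte and astrocyte markers (right), each as log2 of CPM over its own mean of the 6 libraries, with controls left of the vertical line. Mapk10 and both of its marker sums are highest in ethanol 1 and 2 and lowest in ethanol 3; Mapk12 and both of its marker sums are lowest in control 2 and highest in ethanol 3.

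Relative use of paralogs was compared as the log2 ratio of 2 members' CPM within a library, which does not depend on library scaling. The pair Mapk7 and Mapk3 had no ratio because Mapk7 was at 0, which left 5 ratios. Mapk10 to Mapk8 was 0.86 ± 0.07 (SD, n = 3) in control and 0.96 ± 0.14 in ethanol libraries (2-sided exact permutation p = 0.4). Mapk9 to Mapk8 was 0.59 ± 0.07 and 0.68 ± 0.07 (exact p = 0.3). For both JNK ratios the control and ethanol libraries overlapped. In the p38 class, Mapk11 to Mapk14 was -1.20 ± 0.12 in control and -1.25 ± 0.09 in ethanol libraries (exact p = 0.5), and Mapk12 to Mapk14 was -4.35 ± 0.36 and -4.15 ± 0.38 (exact p = 0.6). Mapk13 to its neighbour Mapk14 was -7.46 ± 0.23 in control and -9.05 ± 1.44 in ethanol libraries (exact p = 0.2), with -9.89, -9.86 and -7.38 in ethanol 1, 2 and 3. After Benjamini-Hochberg adjustment over the 5 ratios each p was 0.6, in a design whose smallest exact p is 0.1.

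The genes around the MAP kinases were taken from 7 lists with 78 genes, of which 76 could be tested. None passed the adjusted threshold in edgeR's quasi-likelihood test. At an unadjusted p below 0.05, 6 were higher after ethanol, beside 1.57% of all genes, and 0 were lower, beside 2.58% of all genes. The median log2 fold change of the 76 was 0.03. Groups did not overlap for 12 of the 76, beside 8.85% of all genes tested. Ethanol was above control in 8 of these, beside 3.65% of all genes, and below control in 4, beside 5.19%. The 4 were Map2k7, Map3k1, Map3k13 and Arrb2, with log2 fold changes of -0.07, -0.35, -0.11 and -0.09 and no unadjusted p below 0.05. Of the 8, Map3k10, Mapkapk2 and Rps6ka2 had no unadjusted p below 0.05 either.

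Upstream, 2 of 18 MAP3K genes had an unadjusted p below 0.05. Map3k5 (ASK1), an activator of JNK and p38 in oxidative stress, measured 22.0, 20.2 and 23.9 CPM in the controls and 27.4, 24.3 and 25.4 CPM after ethanol, so each ethanol library was above each control (log2 fold change 0.22, SE 0.08, edgeR p = 0.0298, adjusted p = 1.0, exact permutation p = 0.1). Map3k6, its close relative ASK2, measured 0.841, 0.859 and 0.599 CPM in the controls and 0.888, 1.27 and 1.64 CPM after ethanol (log2 fold change 0.72, SE 0.26, edgeR p = 0.0263, adjusted p = 1.0, exact permutation p = 0.1). The groups of Map3k6 did not overlap either, by a small margin. The most abundant MAP3K genes were Araf, a RAF kinase of the ERK relay, and Taok2, with log2 fold changes of -0.05 (SE 0.09) and 0.01 (SE 0.06).

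No MAP2K gene of the 6 tested had an unadjusted p below 0.05. Map2k1 (MEK1), the activator of ERK and the most abundant, measured 382, 413 and 396 CPM in the controls and 455, 465 and 368 CPM after ethanol. As in Mapk10, ethanol 1 and 2 were the highest and ethanol 3 the lowest (log2 fold change 0.11, SE 0.10). Map2k2 (MEK2) had a log2 fold change of 0.02 (SE 0.07). Map2k3, which encodes a p38 activator, was listed at 0 in each library. What lay behind this 0 was not tested, and it is not taken as absence of the mRNA.

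Of the scaffolds, which hold kinases of a relay together, 0 of 11 tested had an unadjusted p below 0.05. The most abundant, the JNK scaffolds Mapk8ip3 and Spag9, had log2 fold changes of 0.03 (SE 0.08) and -0.01 (SE 0.07). Wdr62 was listed at 0, which, as for Map2k3, is not taken as absence of the mRNA. Among the 11 kinases that MAP kinases phosphorylate, 0 had an unadjusted p below 0.05. Rps6ka2, which encodes an RSK kinase downstream of ERK, came nearest, at 86.3, 87.5 and 86.4 CPM in the controls and 99.6, 91.5 and 91.0 CPM after ethanol. Its groups did not overlap (log2 fold change 0.12, SE 0.06, edgeR p = 0.0759, exact permutation p = 0.1). Rps6ka3 had a log2 fold change of -0.01 (SE 0.08).

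Transcription factors that MAP kinases phosphorylate were represented by 16 genes, 2 of them with an unadjusted p below 0.05. Junb, an AP-1 subunit and immediate-early gene, measured 42.1, 40.3 and 35.6 CPM in the controls and 56.2, 49.1 and 41.9 CPM after ethanol, with ethanol 3 just under the highest control (log2 fold change 0.32, SE 0.11, edgeR p = 0.0238, adjusted p = 1.0, exact permutation p = 0.2). Mef2d measured 206, 208 and 199.7 CPM in the controls and 244, 234 and 212 CPM after ethanol (log2 fold change 0.17, SE 0.07, edgeR p = 0.0475, adjusted p = 1.0, exact permutation p = 0.1). Its groups did not overlap. Mef2c, a p38 and ERK5 substrate of neurons, was at 246, 262 and 297 CPM in the controls and at 366, 358 and 231 CPM after ethanol, again with ethanol 3 as the lowest library (log2 fold change 0.25, SE 0.17).

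The dual-specificity phosphatases remove the activating phosphates of MAP kinases, and 1 of 10 had an unadjusted p below 0.05. Dusp1, an immediate-early gene and glucocorticoid target whose product acts on p38, JNK and ERK, measured 21.6, 19.8 and 18.6 CPM in the controls and 26.1, 28.7 and 25.2 CPM after ethanol. Each ethanol library was above each control. The log2 fold change was 0.42 (SE 0.08), with an unadjusted edgeR p of 0.00119 and an adjusted p of 0.818. It was the one pathway gene that DESeq2 (adjusted p = 0.0441) and edgeR's likelihood ratio test (adjusted p = 0.0697) called, and over all alternatives its adjusted p ran from 0.0441 to 1.0. In its own analysis the study lists Dusp1 among the genes with higher transcript levels after ethanol, and reports that qPCR gave a similar change. The most abundant phosphatase genes, Dusp8 and Dusp7, had log2 fold changes of 0.08 (SE 0.07) and 0.10 (SE 0.06).

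Of the 4 atypical MAP kinases, which lie outside the ERK, JNK and p38 relays, Nlk had an unadjusted p below 0.05. It measured 37.3, 31.8 and 35.1 CPM in the controls and 41.9, 40.1 and 39.2 CPM after ethanol, without overlap (log2 fold change 0.22, SE 0.07, edgeR p = 0.0192, adjusted p = 1.0, exact permutation p = 0.1). The more abundant Mapk6 (ERK3) and Mapk4 (ERK4) had log2 fold changes of 0.04 (SE 0.11) and 0.05 (SE 0.08).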

How the data were processed

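The authors quality-trimmed the single-end reads of 100 nt, aligned them with STAR 2.7.0f and counted them with featureCounts of Subread 1.6.3, per the submitters' processing notes and the file headers. The deposited values are raw counts per gene, summed over exons with the strand setting 2, against the Rnor_6.0 annotation. Reads that aligned to several places or to more than 1 gene were not counted. Symbols came from a RefSeq table of a later build for 29322 of 38445 genes.

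The counts were then compared with edgeR 4.0.16 under R 4.3.3: filterByExpr (10 counts, 15 in total), TMM scaling, quasi-likelihood F test and Benjamini-Hochberg adjustment over 18141 genes, with the study's threshold of 0.2. The SE is the absolute log2 fold change divided by the square root of F. DESeq2 1.42.0 and limma 3.58.1 were alternatives. Scripts were tested on simulated data. Group means are CPM ± SD over 3 libraries, and log2 CPM (counts per 1000000 reads) used a prior count of 2. Precision is limited by the number of pools more than by counting, since libraries within a group varied beyond counting error, and limits at 0 counts cover counting error only. The members, lists and tests were chosen with earlier results of these data known. Genes were named by a rule: all members, the 2 highest by CPM and up to 3 with the smallest unadjusted p below 0.05 in each pathway list, from marker lists the highest and those at 0, and the 5 genes most like the member with the largest fold change. Other genes, such as Map2k7, Map3k10, Kcnj13, Folr1 and Krt18, were named after their values were seen. Some of the highest markers, such as Clic6, Foxj1 and Dnah9, entered only the sums and counts of their lists. 1 gene of the marker lists is not reported here and was left out of the sum of its list.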

Additional observations from a re-analysis of the deposited data

How the results depend on the processing

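The 8 members' fold changes were recomputed under 13 alternatives. Of these 104 values, 98 kept their direction and their side of the threshold, 5 changed sign and 1, Mapk13 without ethanol 3, passed the threshold. Mapk8 (0.01) went to -0.02 with library size in place of TMM and ranged from -0.05 to 0.08 when 1 library was left out, negative without control 3 (-0.03) and without ethanol 2 (-0.05). In the same way Mapk3 ranged from 0.04 to 0.14, Mapk9 from 0.08 to 0.14, Mapk10 from 0.04 to 0.25, Mapk11 from -0.15 to -0.05, Mapk12 from -0.08 to 0.29, Mapk13 from -2.45 to -0.75 and Mapk14 from -0.08 to -0.03. For the reversals the cause was not tested. The count of genes called was 74 with DESeq2, 77 with the likelihood ratio test and 0 to 83 with 1 library left out (4 without ethanol 1, 83 without ethanol 3), against 0. Members called numbered 0 to 1 with 1 library left out, the 1 being Mapk13. Members with an unadjusted p below 0.05 numbered 1 with limma-voom, 1 with the replicate block and 0 to 3 with 1 library left out (Mapk9, Mapk10 and Mapk13 without ethanol 3). Pathway genes called numbered 1 with DESeq2 and 1 with the likelihood ratio test, Dusp1 in both. Ordering by CPM without length moved 2 members, Mapk3 and Mapk10. Added after the data were seen, 78 values of the 6 pathway genes kept their direction, and 28 of 30 ratio differences did. The exceptions were Mapk12 to Mapk14, which ranged from -0.02 without ethanol 3 to 0.34 without control 1, and was -0.0045 without control 2. Libraries of the same number hold different rats. Their deviations from the group mean over 14241 genes correlated by 0.0264, 0.388 and 0.211 for numbers 1, 2 and 3. Between libraries of different numbers the correlations ran from -0.427 to 0.305. With 3 libraries a group, such deviations cannot show whether a number marks a shared batch, and this was not tested. The block left the count of called genes at 0 and gave Mapk13 a log2 fold change of -1.33. Depth limits Mapk13 most, with 6 counts in ethanol 1 and 2.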
